A study of Gallus gallus with 20 samples.

Results

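The genes described here encode proteins of the mitochondrial respiratory chain and of the mitochondrial ribosome, measured in HD11 cells, a chicken macrophage line transformed by a retrovirus. Members were the probe sets whose only gene name began with NDUF, COX4 to COX8, UQCR, ATP5 or SDHA to SDHD (respiratory chain) or with MRPL or MRPS and a digit (mitochondrial ribosome), a rule on names alone. This gave 186 probe sets of 120 genes among 38439 probe sets tested, of which 25795 carried 1 gene name. The respiratory chain held 107 probe sets of 62 genes and the mitochondrial ribosome 79 probe sets of 58 genes, and both were examined apart.

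HD11 cells received 1 µg/ml endotoxin of Salmonella typhimurium-798, or 0 µg/ml as phosphate-buffered saline vehicle, and RNA was collected at 4 times, namely 1, 2, 4 and 8 h after treatment began (hours post stimulation, hps). Each time had 3 endotoxin arrays and 2 vehicle arrays, 20 Affymetrix chicken arrays in all, since the third replication held endotoxin-treated cells only. Every array came from 1 experimental unit of 1 cell line. The paper describes RNA from pools of 3 flasks, with the treatments carried out on different days. The spread between replicates is thus that between such cultures, not between birds. Levels are log2 signals after robust multi-array averaging (RMA), and a difference is endotoxin minus vehicle at the same time from a linear model fitted to all probe sets and all arrays. A probe set was called changed at a false discovery q under 0.05 over all 38439 probe sets.

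The respiratory chain passes electrons from NADH (complex I) or succinate (complex II) through complexes III and IV to oxygen, and the proton gradient built on the way drives the ATP synthase, complex V. Its core subunits include a few made inside the organelle by the mitochondrial ribosome, whose own proteins are nuclear genes made in the cytosol and imported. In mouse macrophages, endotoxin is known to shift energy production towards glycolysis, with lowered respiration. The roles named for single subunits are those known in mammals.

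The array mean of 12 macrophage markers was 10.8 to 10.9 in both treatments, that of 9 T cell genes 5.39 to 5.55 in endotoxin-treated and 5.41 to 5.60 in vehicle cells, and that of 7 B cell genes 4.60 to 4.88 and 4.68 to 4.85. Single genes went the other way: the macrophage receptor gene MARCO averaged 5.45 in endotoxin-treated and 5.47 in vehicle cells, and the T cell gene CD28 averaged 10.4 and 10.5. Signals of different probes do not rank genes, so these lists describe the cells only roughly. The vehicle arrays at 4 hps stood apart from the other vehicle arrays. The 3' minus 5' signal of beta-actin was -0.15 to 0.011 log2 on the endotoxin arrays at 4 hps, against 0.22 to 0.35 on the vehicle arrays at 4 hps and -0.0018 to 0.11 on the other vehicle arrays. It was -0.058 to 0.19 on the other endotoxin arrays. That of GAPDH was 0.069 and -0.034 on the vehicle arrays at 4 hps, against -0.11 to -0.013 on the other vehicle arrays, so by this control only the first lay outside their range. The vehicle arrays at 4 hps also lay at 14.7 to 24.4 on the first principal component (26.6% of the variance), whereas endotoxin replicate 3 of the times 1 and 2 hps lay at 32.1 to 33.6 and all others between -21.9 and 12.1. The part of these differences in the 4 hps results was not tested, and the calls at 4 hps are therefore also given against vehicle cells of 1, 2 and 8 hps.

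Members gave strong signals. Of the 107 respiratory chain probe sets, 60 were in decile 10 of all probe sets by mean signal, the brightest, as were 44 of the 79 mitochondrial ribosome probe sets. Signals of different probe sets depend on their probes and do not rank the genes by abundance. The median SD within a group ranged from 0.038 to 0.064 log2 for the respiratory chain and from 0.041 to 0.067 for the mitochondrial ribosome. It was 0.076 to 0.12 for all probe sets and 0.058 to 0.097 for those in the 3 brightest deciles. Cytosolic ribosomal proteins were tighter than both groups, at 0.019 to 0.038.

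As a whole, neither group moved by more than a few hundredths of a log2 unit at any time. The median difference of the respiratory chain was -0.020, -0.013, -0.011 and -0.0086 in the 4 times in turn, and that of the mitochondrial ribosome was -0.028, -0.023, -0.011 and -0.013. Over all probe sets the medians were -0.0028, -0.0018, -0.020 and -0.0032. At 1 hps the median difference was 0.029 in the first replication and -0.053 in the second for the respiratory chain, and 0.0083 and -0.060 for the mitochondrial ribosome, so the replications differed in direction.

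**Figure D1:**
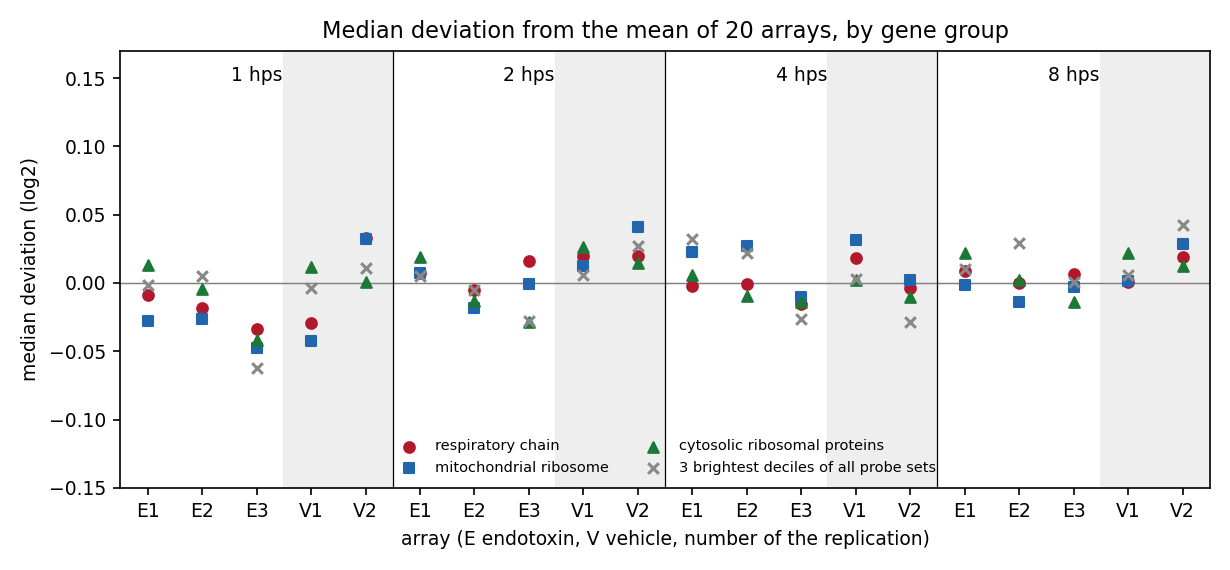
Median deviation (log2) of each gene group from its mean over the 20 arrays, one column per array, ordered by time, with endotoxin arrays (E) left of the shaded vehicle arrays (V) and numbered by replication. The medians ran from -0.034 to 0.033 for the respiratory chain (circles), from -0.048 to 0.041 for the mitochondrial ribosome (squares), from -0.042 to 0.026 for the cytosolic ribosomal proteins (triangles) and from -0.062 to 0.043 for the 3 brightest deciles of all probe sets (crosses).

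Single probe sets of the respiratory chain were called only at 4 hps. At the other times 0 of 107 were called by limma. The background was low there too: 0.0364% of all probe sets were called higher and 0 lower at 1 hps. At 2 hps these shares were 0.0806% and 0.0052%. At 8 hps they were 0.148% and 0.0104%. At an unadjusted p under 0.05 the counts were 3, 1 and 1 (2.8%, 0.935% and 0.935%) at these times, against 3.48%, 4.33% and 5.35% of all probe sets. At 4 hps 2 probe sets were called higher (1.87%, against 4.95% of all probe sets) and 2 lower (1.87%, against 3.13% of all), all from complexes I and V. Unadjusted p was under 0.05 for 19 of the 107 (17.8%), against 22.4% of all probe sets. All 60 probe sets of decile 10 were uncalled, whereas 3.98% of all probe sets in that decile were called higher and 4.16% lower.

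The mitochondrial ribosome had 0 of 79 probe sets called at 1, 2 or 8 hps, with 0, 2 and 0 at an unadjusted p under 0.05. At 4 hps 0 were called higher and 1 lower (1.27%, against 4.95% and 3.13% of all probe sets in these directions), and 6 of 79 (7.59%) had an unadjusted p under 0.05. None of its 44 probe sets in decile 10 was called.

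**Figure D2:**
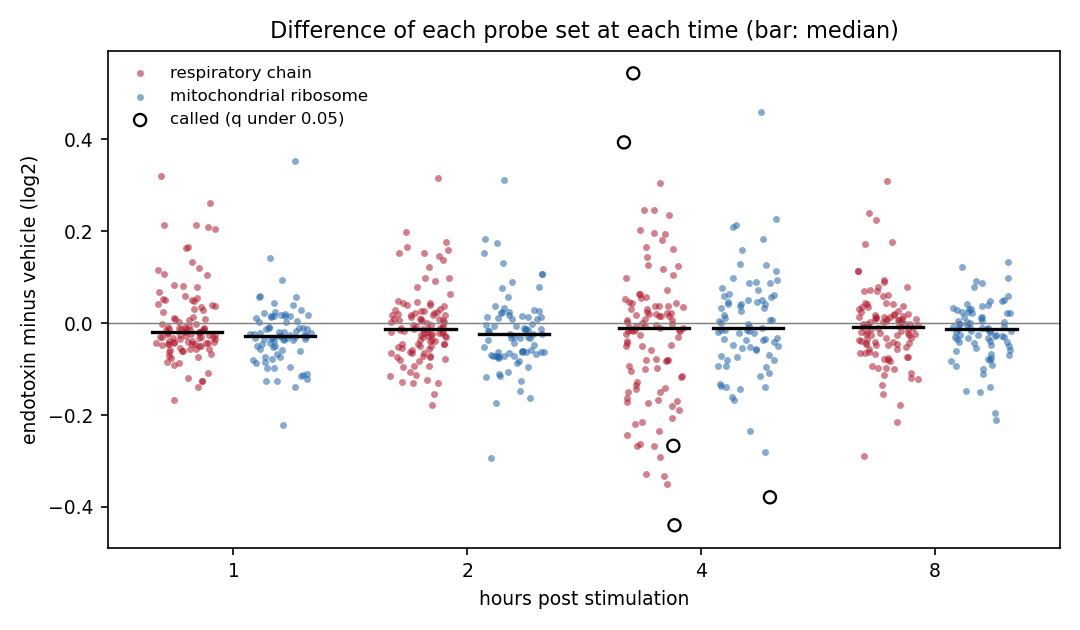
Difference between endotoxin-treated and vehicle cells (log2, vertical axis) for each of the 107 respiratory chain and 79 mitochondrial ribosome probe sets at 1, 2, 4 and 8 hps, with bars at the medians and open circles around the called ones. The medians lie at 0 within 0.03, the spread is widest at 4 hps, and the 5 open circles are all at 4 hps.

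These data bound how large an unseen change in signal could be. At 4 hps the 95% interval of the difference lay within 0.5 log2 of 0 (1.41-fold either way) for 94 of 107 respiratory chain probe sets (87.9%) and 77 of 79 mitochondrial ribosome probe sets (97.5%), against 79.4% of all probe sets. It lay within 1 log2 (2-fold) for every member at every time, and for 97.9% of all probe sets at 4 hps. At 4 hps it lay within 0.25 log2 (1.19-fold) for 52 respiratory chain and 46 mitochondrial ribosome probe sets (48.6% and 58.2%). The shares were 17.3% of all probe sets and 33.6% of those in the 3 brightest deciles. Effects of that size in the other members were not resolved with 3 and 2 arrays.

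Complex I, the NADH dehydrogenase, had 54 probe sets with a median difference of -0.021 at 4 hps, 1 called higher and 2 lower. The lower ones were from NDUFB8, an accessory subunit of the membrane arm, and NDUFS6, a zinc-binding subunit of the peripheral arm. NDUFB8 (Gga.8822.1.S1_at) measured 9.15, 9.25 and 9.22 in endotoxin-treated cells at 4 hps, against 9.53 and 9.69 in vehicle cells. The groups did not overlap, and the difference was -0.44 (SE 0.11, q = 0.023, limma). Its difference was 0.00 at 1 hps, 0.17 at 2 hps and 0.03 at 8 hps (SE 0.11 each), uncalled.

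NDUFS6 (Gga.8284.3.S1_at) measured 4.45, 4.47 and 4.75 in endotoxin-treated and 4.77 and 4.75 in vehicle cells at 4 hps. The third endotoxin array was level with vehicle, and the fitted difference was -0.27 (SE 0.08, q = 0.043, limma). The higher probe set was from NDUFS4, a subunit of the peripheral arm needed for assembly and activity of the complex. NDUFS4 (GgaAffx.12527.1.S1_at) measured 4.75, 4.54 and 4.62 in endotoxin-treated and 4.07 and 4.23 in vehicle cells, without overlap, and differed by 0.54 (SE 0.14, q = 0.026, limma).

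Further probe sets of NDUFB8 and NDUFS4 gave other values, and those of NDUFS6 were below 0 without being called. NDUFB8 had a second one, GgaAffx.12425.1.S1_s_at, at 12.33, 12.35 and 12.35 in endotoxin-treated and 12.38 and 12.32 in vehicle cells, a difference of -0.02 (95% interval -0.15 to 0.12). The other NDUFS4 probe set, Gga.3232.1.S1_at, differed by -0.13 (SE 0.10), in the other direction. For NDUFS6, Gga.8284.1.S1_a_at measured 11.83, 11.64 and 11.75 in endotoxin-treated and 11.92 and 12.01 in vehicle cells at 4 hps, a difference of -0.23 (SE 0.08) that missed the threshold (q = 0.052, limma), and Gga.8284.1.S1_x_at measured 11.52, 11.47 and 11.50 in endotoxin-treated and 11.51 and 11.53 in vehicle cells, a difference of -0.01. Gga.8284.2.S1_at and Gga.8284.3.A1_at, both dim, differed by -0.15 and -0.14. The 4 hps endotoxin values of Gga.8284.1.S1_a_at were also below all 8 vehicle arrays of the experiment, the lowest of which was 11.84.

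NDUFA4 had the highest mean signal among complex I names. It was first found in that complex and later placed in complex IV. It measured 12.81, 12.86 and 12.84 in endotoxin-treated and 12.89 and 12.86 in vehicle cells at 4 hps, a difference of -0.04 (95% interval -0.18 to 0.10). Of the remaining complex I probe sets, NDUFA9 (Gga.1626.1.S1_at, -0.33), NDUFB4 (GgaAffx.9508.1.S1_at, -0.33) and NDUFA10 (Gga.4741.1.S1_s_at, -0.27) came nearest to the threshold below 0 at 4 hps, with q of 0.050, 0.055 and 0.067 (limma). They were named after their values were seen. NDUFB4 had a further probe set, GgaAffx.9508.1.S1_s_at, that differed by 0.20 in the other direction (q = 0.062).

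Complex II, the succinate dehydrogenase shared with the citric acid cycle, had 4 probe sets and none called. SDHA, its flavoprotein, measured 12.30, 12.36 and 12.40 in endotoxin-treated and 12.40 and 12.42 in vehicle cells at 4 hps, a difference of -0.05 (95% interval -0.20 to 0.10). Complex III, which reduces cytochrome c, had 12 probe sets and none called, with a median difference of 0.018. Its hinge protein UQCRH measured 12.97, 13.03 and 13.03 against 12.99 and 12.95, a difference of 0.04 (95% interval -0.10 to 0.17). UQCRC1, a core protein of complex III, came nearest to the threshold: Gga.4338.3.S1_a_at measured 10.28, 10.34 and 10.24 in endotoxin-treated and 10.01 and 10.12 in vehicle cells, a difference of 0.25 (SE 0.08, q = 0.051, limma), while its probe set Gga.4338.1.S1_at differed by 0.04. Against vehicle cells of 1, 2 and 8 hps, Gga.4338.3.S1_a_at differed by 0.00 (q = 0.79, limma). UQCRFSL1, which RefSeq lists as a synonym of the Rieske protein gene UQCRFS1, had uncalled differences of -0.35 (SE 0.17) and 0.02 (SE 0.07) with its 2 probe sets.

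Complex IV, cytochrome c oxidase, had 8 probe sets, none called, and a median difference of 0.026. COX4I1, the largest of its nuclear-encoded subunits, measured 13.29, 13.25 and 13.24 in endotoxin-treated and 13.26 and 13.26 in vehicle cells at 4 hps, a difference of 0.02 (95% interval -0.11 to 0.14). COX7C had the largest early difference of the respiratory chain. Its probe set Gga.6171.2.S1_at measured 7.74, 7.50 and 7.74 in endotoxin-treated and 7.24 and 7.40 in vehicle cells at 1 hps, without overlap, and differed by 0.32 (SE 0.10), which was not called (q = 1.00, limma). The other COX7C probe set, Gga.6171.1.S1_a_at, differed by 0.00 at 1 hps.

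Complex V had 24 probe sets, a median difference of 0.0053 and 1 called higher, from ATP5O, the stalk subunit that confers oligomycin sensitivity. ATP5O (Gga.8542.3.S1_a_at) measured 6.18, 6.26 and 6.08 in endotoxin-treated and 5.67 and 5.88 in vehicle cells at 4 hps, without overlap, and differed by 0.39 (SE 0.12, q = 0.041, limma). The gene had 4 more probe sets. Of these, 3 with mean signals of 11.87, 12.51 and 11.97, differed by 0.07, 0.01 and 0.06, and Gga.8542.2.S1_at differed by -0.13. ATP5G3, a gene for the c subunit of the rotor, gave the highest signal of complex V and of all members. It measured 13.49, 13.50 and 13.52 in endotoxin-treated and 13.53 and 13.45 in vehicle cells, a difference of 0.00 (95% interval -0.13 to 0.13).

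The last 5 respiratory chain probe sets carried names that the rule takes but that are not subunits: COX4NB, a neighbour of the COX4 gene, ATP5S, and the complex I assembly factors NDUFAF1 and NDUFA12L (2 probe sets). All 5 differences were below 0 at 4 hps, from -0.19 to -0.02, and none was called.

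The large subunit of the mitochondrial ribosome, which forms peptide bonds, had 44 probe sets with a median difference of -0.013 at 4 hps and held the only call of its group. MRPL15 (Gga.7129.3.S1_at), in decile 2 of all probe sets by signal, measured 3.31, 3.26 and 3.19 in endotoxin-treated and 3.47 and 3.75 in vehicle cells, a difference of -0.38 (SE 0.11, q = 0.032, limma). The groups did not overlap. The same gene's Gga.7129.3.S1_s_at, at a mean signal of 9.57, differed by 0.03 (95% interval -0.11 to 0.17), and Gga.7129.2.S1_at by 0.06.

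MRPL13, with the highest signal of the large subunit, measured 11.75, 11.83 and 11.83 in endotoxin-treated and 11.80 and 11.71 in vehicle cells at 4 hps, a difference of 0.05 (95% interval -0.09 to 0.19). MRPL20 (Gga.1933.3.S1_at) had the largest difference of all mitochondrial ribosome probe sets and was not called. It measured 6.41, 6.19 and 6.39 in endotoxin-treated and 5.92 and 5.65 in vehicle cells, a difference of 0.46 whose error was large (SE 0.19, q = 0.11, limma), while its probe set Gga.1933.5.S1_a_at differed by -0.02. Against vehicle cells of 1, 2 and 8 hps the difference of Gga.1933.3.S1_at was 0.30 (q = 0.36, limma). MRPL32 (Gga.2854.2.S1_a_at), named after its values were seen, measured 9.12, 8.71 and 8.79 against 9.23 and 9.17, a difference of -0.28 (SE 0.10, q = 0.066, limma). Its 3 endotoxin values were also below those of all vehicle arrays, which began at 9.16. From vehicle cells of 1, 2 and 8 hps it differed by -0.27, uncalled.

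The small subunit, which binds the messenger, had 35 probe sets, a median difference of 0.0005 and none called. MRPS33, with the highest signal of the small subunit, measured 11.50, 11.42 and 11.40 in endotoxin-treated and 11.52 and 11.54 in vehicle cells, a difference of -0.07 (95% interval -0.23 to 0.09). Both probe sets of MRPS34 had endotoxin values above vehicle without overlap and were uncalled, at 0.18 (Gga.5801.2.S1_a_at, q = 0.094) and 0.21 (Gga.12258.1.S1_s_at, q = 0.11, limma). They differed by 0.10 and 0.03, uncalled, from vehicle cells of 1, 2 and 8 hps. They were named after their values were seen.

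**Figure D3:**
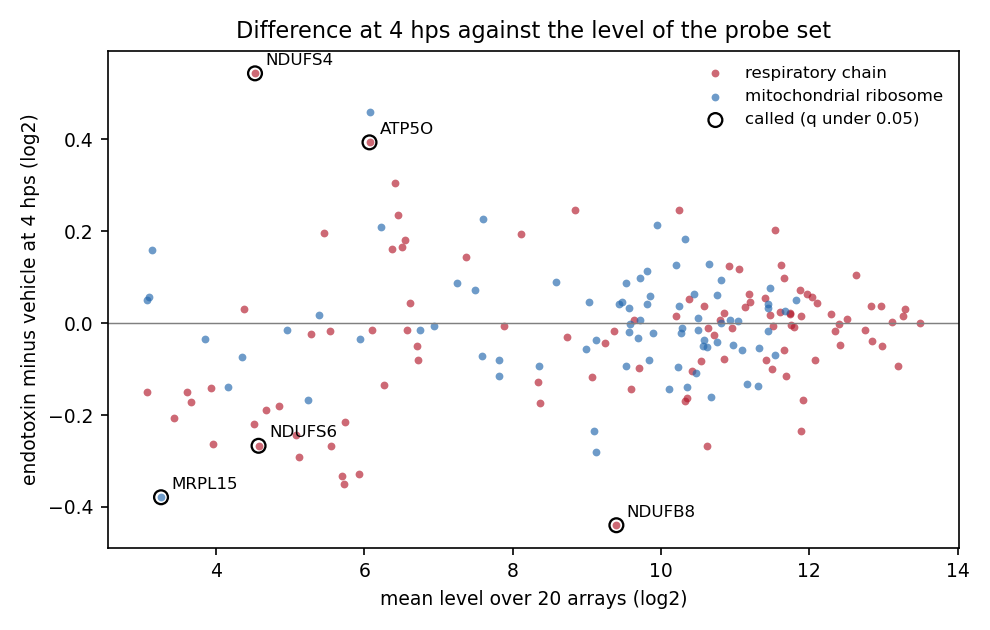
Difference at 4 hps (log2, vertical axis) against the mean level over the 20 arrays (log2, horizontal axis) for every respiratory chain (red) and mitochondrial ribosome (blue) probe set, with the called ones circled and named. Differences narrow towards the right, and 4 of the 5 circled probe sets have a mean level under 7.

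In 42 genes with more than 1 probe set, 27 of the respiratory chain and 15 of the mitochondrial ribosome, 4 and 1 had a call at 4 hps and 0 had all their probe sets called. With only the probe set of highest mean kept for each gene, 0 of 62 respiratory chain genes and 0 of 58 mitochondrial ribosome genes were called at 4 hps, with 8 and 3 at an unadjusted p under 0.05. Non-overlap of the 3 endotoxin and 2 vehicle values was seen in 19 higher and 28 lower respiratory chain probe sets (17.8% and 26.2%) and in 14 higher and 18 lower mitochondrial ribosome probe sets (17.7% and 22.8%), against 15.7% of all probe sets in each direction and 25.8% higher and 16.1% lower of those in the 3 brightest deciles.

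Non-overlap was also counted at the other times. At every time it was counted on levels not adjusted for replication, and the third replication held no vehicle arrays. At 2 hps the endotoxin values lay below vehicle for 21 respiratory chain (19.6%) and 21 mitochondrial ribosome probe sets (26.6%), against 9.2% of all probe sets and 14.3% of those in the 3 brightest deciles (the bright ones), and above vehicle for 7 (6.54%) and 8 (10.1%), against 10.8% of all and 6.36% of the bright ones. At 1 hps the counts were 14 below in each group (13.1% and 17.7%, against 7.27% of all and 8.34% of the bright ones) and 8 and 1 above (7.48% and 1.27%, against 9.1% and 6.67%). At 8 hps they were 9 and 11 below (8.41% and 13.9%, against 9.95% of all and 13.8% of the bright ones) and 11 and 1 above (10.3% and 1.27%, against 10.3% and 8.85%). These differences were small: at 2 hps the separated members below vehicle had a median of -0.071 and none was called. Cytosolic ribosomal proteins showed 12 of 64 genes below vehicle at 2 hps (18.8%) and 2 above (3.12%).

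The calls at 4 hps rested on few arrays. Leaving out endotoxin replicate 3 at 4 hps left 0 calls in either group. Leaving out endotoxin replicate 1 left 0 higher in the respiratory chain and 2 lower in the mitochondrial ribosome. Leaving out a vehicle replicate left a single vehicle array at 4 hps, so its count is not given here. Calls over all probe sets in these fits are not given, so the losses are not shown to be particular to these genes. When the test was confined to the probe sets brighter than the median, the respiratory chain had 3 called higher and 7 lower of 92, and the mitochondrial ribosome 1 higher and 2 lower of 70, against 14.2% higher and 6.65% lower of all probe sets in that range.

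Against vehicle cells of 1, 2 and 8 hps, the endotoxin-treated cells of 4 hps had 0 respiratory chain and 0 mitochondrial ribosome probe sets called in either direction, with 11 and 4 (10.3% and 5.06%, against 12.6% of all) at an unadjusted p under 0.05, where 0.645% of all probe sets were called higher and 0.653% lower. The medians were -0.011 and 0.0071. All 3 endotoxin values lay above those 6 vehicle values for 3 respiratory chain and 4 mitochondrial ribosome probe sets (2.8% and 5.06%, against 3.04% of all and 5.2% of the bright ones), and below them for 8 and 4 (7.48% and 5.06%, against 3.31% of all and 7.35% of the bright ones). The differences of the 5 called probe sets were 0.16 for NDUFS4 (q = 0.49), -0.17 for NDUFB8 (q = 0.34), 0.12 for ATP5O (q = 0.50), 0.00 for NDUFS6 (q = 0.79) and -0.03 for MRPL15 (q = 0.73), all by limma. Each was smaller in size than against the vehicle cells of 4 hps. These probe sets were picked by their calls against the vehicle cells of 4 hps. A smaller difference from other vehicle cells can therefore follow from that choice alone, and no conclusion is drawn from it.

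The vehicle cells themselves differed at 4 hps in a few members. Against vehicle cells of the other times, 1.72% of all probe sets were called higher and 3.74% lower. Among respiratory chain probe sets NDUFS6 (Gga.8284.3.S1_at) was higher by 0.27 (q = 0.036) and UQCRC1 (Gga.4338.3.S1_a_at) lower, at -0.25 (q = 0.042). Among mitochondrial ribosome probe sets MRPL15 (Gga.7129.3.S1_at) was higher by 0.35 (q = 0.034, limma). The vehicle cells of 4 hps enter this comparison and that with endotoxin, so these comparisons are not independent.

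NDUFA7, a complex I subunit, came nearest to a call against the vehicle cells of the other times. Its probe set Gga.6088.1.S1_s_at measured 10.24, 10.18 and 10.09 in endotoxin-treated cells of 4 hps, and 10.35 and 10.34 in vehicle cells of 4 hps, with the other vehicle arrays between 10.32 and 10.49. The difference from vehicle cells of 1, 2 and 8 hps was -0.24 (SE 0.06, q = 0.050, limma) and that from vehicle cells of 4 hps -0.17 (SE 0.07, q = 0.12, limma). The other probe sets of NDUFA7 gave -0.09 and 0.02 in the first of these comparisons.

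Members were also called for a change over time within a treatment. The level varied over 1, 2, 4 and 8 hps in endotoxin-treated cells for 7 of 107 respiratory chain and 2 of 79 mitochondrial ribosome probe sets (10.9% of all probe sets), and in vehicle cells for 1 and 2 (7.55% of all). The members so called were named after their values were seen. In endotoxin-treated cells 15.9% of respiratory chain and 15.2% of mitochondrial ribosome probe sets had an unadjusted p under 0.05, against 21.7% of all. In vehicle cells these shares were 9.35% and 6.33%, against 21.5% of all. With 3 endotoxin and 2 vehicle arrays a time, the 2 tests differ in precision. In the test of whether the difference between treatments varied with time, 0 members were called, as were 0 of all probe sets. There 6 respiratory chain probe sets (5.61%) and 2 mitochondrial ribosome probe sets (2.53%) had an unadjusted p under 0.05, against 11.5% of all.

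ATP5J2, the f subunit of the ATP synthase, varied in both treatments. Its probe set Gga.4567.3.S1_a_at averaged 9.28, 8.82, 8.84 and 8.67 over the 4 times in endotoxin-treated cells, and 9.20, 8.61, 8.56 and 8.63 in vehicle cells. All 5 arrays at 1 hps, at 9.10 to 9.40, were above all later arrays (q = 0.009 for endotoxin and 0.022 for vehicle, limma). The gene's 4 other probe sets were not called for time in either treatment.

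MRPL50, a large subunit protein, also varied in both. Gga.9908.2.S1_at averaged 6.20, 6.09, 5.93 and 5.67 over the 4 times in endotoxin-treated cells, and 6.17, 5.89, 5.94 and 5.60 in vehicle cells (q = 0.009 and 0.032, limma). Its other probe set, GgaAffx.11916.1.S1_s_at, stayed between 10.84 and 11.03 on all arrays. MRPL42 (Gga.16479.1.S1_at) was called in vehicle cells only (q = 0.047, limma), and measured 10.60, 10.57 and 10.58 in endotoxin-treated cells at 2 hps, against 10.70 and 10.76 in vehicle cells at 2 hps and 10.45 to 10.50 in vehicle cells at the other times.

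ATP5O was called over time in endotoxin-treated cells with 2 of its 5 probe sets, the 2 of lower signal. Gga.8542.3.S1_a_at averaged 6.35, 6.18, 6.17 and 5.81 at 1, 2, 4 and 8 hps in endotoxin-treated cells (q = 0.011, limma) and 6.19, 6.02, 5.78 and 5.94 in vehicle cells. Gga.8542.2.S1_at averaged 6.63, 6.53, 6.13 and 5.96 in endotoxin-treated cells (q = 0.008, limma) and 6.45, 6.14, 6.20 and 5.94 in vehicle cells. The others called within endotoxin-treated cells were NDUFB8, UQCRB (Gga.9987.1.S1_at), ATP5G1 (Gga.10913.1.S1_at), NDUFS6 (Gga.8284.3.A1_at) and MRPS16 (Gga.3282.5.S1_at), with q from 0.022 to 0.033. UQCRB, a small subunit of complex III, was lowest at 1 hps in endotoxin-treated cells (5.93, 5.83 and 5.68) and stood at 6.17, 6.47 and 6.14 at 8 hps, with vehicle cells at 5.86 and 6.06 at 1 hps and 6.13 and 6.32 at 8 hps.

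**Figure D4:**
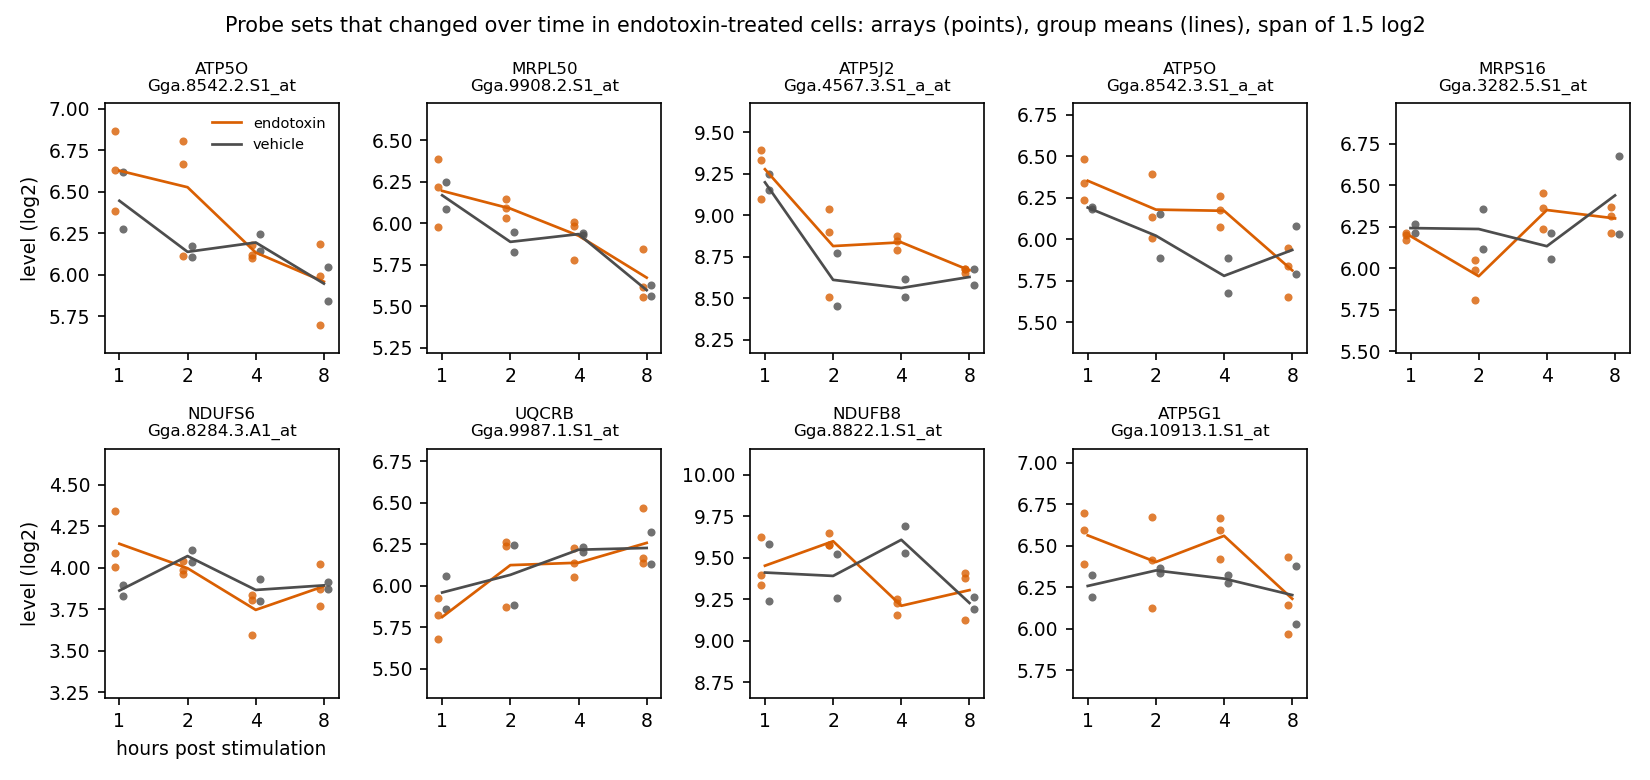
Levels (log2, vertical axis, a span of 1.5 in each panel) at 1, 2, 4 and 8 hps of the 9 probe sets called for time in endotoxin-treated cells, with endotoxin in orange and vehicle in grey, points for arrays and lines through group means. ATP5J2 and MRPL50 follow similar courses in both treatments, and for NDUFB8 the vehicle values lie above the endotoxin values at 4 hps.

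Other mitochondrial genes were examined with 1 probe set a gene, the one of highest mean. At 1, 2 and 8 hps none of them was called, and at 4 hps their counts stand against 4.95% higher and 3.13% lower of all probe sets. Among 16 citric acid cycle genes 0 were called higher and 1 lower at 4 hps, SUCLG2, a subunit of the GTP-forming succinyl-CoA ligase. SUCLG2 measured 12.30, 12.23 and 12.30 in endotoxin-treated and 12.52 and 12.59 in vehicle cells, a difference of -0.29 (SE 0.07, q = 0.018, limma), and -0.15 (q = 0.20) against vehicle cells of 1, 2 and 8 hps. Among 39 genes for assembly factors, electron carriers and carrier proteins 2 were called higher and 0 lower, TTC19 and the electron carrier gene ETFDH (0.29, q = 0.050). ETFDH differed by 0.19 (q = 0.22, limma) from vehicle cells of the other times.

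TTC19, a protein that keeps complex III active after the Rieske protein is inserted, was the only gene of these lists called against both sets of vehicle cells. It measured 9.15, 9.15 and 9.09 in endotoxin-treated and 8.37 and 8.59 in vehicle cells at 4 hps, without overlap. The difference was 0.59 (SE 0.12, q = 0.012, limma), and 0.45 (q = 0.026, limma) against vehicle cells of 1, 2 and 8 hps. At 1, 2 and 8 hps its difference was 0.16, 0.27 and 0.24, uncalled.

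Of 23 genes for protein import and quality control, 2 were called higher, the inner membrane protease gene AFG3L2 (0.47) and the import receptor gene TOMM34 (0.31), and 1 lower, TOMM20 (-0.35), part of the receptor of the outer membrane. Against vehicle cells of 1, 2 and 8 hps these were 0.12, 0.16 and 0.03, uncalled. Vehicle cells of 4 hps differed from those of other times by 0.38 for TOMM20 (q = 0.009) and -0.35 for AFG3L2 (q = 0.036, limma). For TOMM34 that difference was -0.16, uncalled. Of 43 genes for mitochondrial transcription and translation beyond the ribosome, 1 was called higher, the initiation factor gene MTIF2 (0.51, q = 0.028), and 1 lower, GTPBP10 (-0.25, q = 0.044, limma). MTIF2 differed by 0.36 (q = 0.11) and GTPBP10 by -0.17 (q = 0.20, limma) from vehicle cells of 1, 2 and 8 hps. Of 20 regulators of mitochondrial biogenesis, 1 was called higher, the transcription factor gene CREB1 (0.58, q = 0.006), and 1 lower, the kinase subunit gene PRKAA2 (-0.39, q = 0.042, limma). CREB1 differed by 0.33 (q = 0.052) and PRKAA2 by -0.22 (q = 0.26, limma) from vehicle cells of 1, 2 and 8 hps.

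Cytosolic ribosomal proteins, the counterpart of the mitochondrial ribosome outside the organelle, had 0 of 64 genes called at any time, with a median difference of 0.0057 at 4 hps and 1 gene at an unadjusted p under 0.05. In another setting every array was centred on the median signal of all 127 cytosolic ribosomal protein probe sets, not of the 64 kept above. This is a median of levels, not of differences, so the shift need not match the 0.0057 of the 64 genes. The median difference at 4 hps then became 0.053 for all probe sets. For the respiratory chain and the mitochondrial ribosome it became 0.061 each. Calls then stood at 4 higher and 1 lower in the respiratory chain and 0 in the mitochondrial ribosome, against 3343 higher (8.7%) and 431 lower (1.12%) of all probe sets in place of 1902 and 1204.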

How the data were processed

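The deposited values were log2 expression levels that the authors made by RMA (background correction, quantile normalisation and median polish) from 20 Affymetrix chicken arrays. The authors' comparison table gave the gene names. Its log2 ratios and its q-values, columns the authors deposited as their own comparisons, were not used, and 0 columns were left unmapped. From the 38535 probe sets, 96 control probe sets were left out.

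limma 3.58.1 (R 4.3.3) was fitted to 8 groups with the replication as a further term, as the study's methods also treat replication, dose and time as fixed effects (10 residual and 5.13 prior degrees of freedom). q-values came from the histogram of all p-values in 20 bins. The fit was run on simulated data with independent noise and no replication effect. Full recovery was required only of the largest change put in. No recovery rate is given for changes of the size reported here. Precision is limited by 3 and 2 arrays a group. Replication numbers come from the labels. Correlations of same-numbered arrays' deviations were -0.14, 0.24, 0.068 and 0.11 at 1, 2, 4 and 8 hps, so pairing was not shown at every time.

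Named were all called members with the same sign in both complete replications (up to 6 rises and falls a group, 1 probe set a gene), the member of highest mean in each complex or subunit, and genes of other lists called against both sets of vehicle cells. Of the other names, MRPL20, UQCRFSL1, UQCRC1, COX7C, NDUFA7 and ATP5F1 were chosen after their values were seen. The rest are marked so or belong to counts of 5 or fewer. Members and lists were chosen with earlier results of these data known. Of 120 member names, 113 matched a RefSeq symbol and 4 a synonym. Sequences were not used here, nor was a search of promoters. Probe sets with several gene names were not used as members.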

Additional observations from a re-analysis of the deposited data

How the results depend on the processing

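Of 36 other settings, none gave a call at 2 or 8 hps or for the change of the difference with time in either group. Where no share of all probe sets stands beside a count, a changed count is not shown to be particular to the members. Counts below are of called probe sets at 4 hps, where the reported ones are 2 higher and 2 lower in the respiratory chain and 0 and 1 in the mitochondrial ribosome. For endotoxin at 4 hps against vehicle at 1, 2 and 8 hps the reported counts are 0, and for vehicle at 4 hps against vehicle at the other times they are 1 higher and 1 lower in the respiratory chain and 1 and 0 in the mitochondrial ribosome. Without the replicate block, the respiratory chain had 0 higher and 0 lower, 0 and 0 between vehicle times, and 1 lower in endotoxin against the other vehicle times, and the mitochondrial ribosome 0 lower and 0 higher between vehicle times. Leaving out a replication or a single array (23 settings) gave 0 to 3 higher and 0 to 3 lower in the respiratory chain, 0 to 3 higher and 0 to 2 lower between vehicle times and 0 to 1 lower in endotoxin against the other vehicle times, and in the mitochondrial ribosome 0 to 2 lower, 0 to 1 higher between vehicle times and 0 to 1 lower in endotoxin against the other vehicle times.

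Counts of 0 in place of all the reported calls resulted from array weights, from the actin 3' minus 5' signal as a covariate and from 1 probe set a gene. At 4 hps the actin signal did not overlap between treatments (-0.15 to 0.011 for endotoxin, 0.22 to 0.35 for vehicle). The covariate can therefore take up part of the tested difference, and its count of 0 does not tell the 2 apart. Benjamini-Hochberg adjustment gave 1 higher and 1 lower in the respiratory chain, 0 in the mitochondrial ribosome and 0 between vehicle times. Moderation with trend and robust options gave 4 higher and 5 lower in the respiratory chain. The mitochondrial ribosome had 1 and 2 (5.64% higher and 3.35% lower of all). Between vehicle times it had 2 higher (1.96% of all). In endotoxin against the other vehicle times 3 respiratory chain and 2 mitochondrial ribosome probe sets were lower (1.51% of all). NDUFS6 (Gga.8284.1.S1_a_at), MRPL32 (Gga.2854.2.S1_a_at) and ATP5F1 (Gga.5638.2.S1_a_at) were called lower against both sets of vehicle cells in this setting. Against the other vehicle times they differed by -0.20 (q = 0.0096), -0.27 (q = 0.028) and -0.091 (q = 0.041, limma). The same endotoxin arrays enter both comparisons. Cyclic loess gave 1 higher and 1 lower in the respiratory chain (3.74% and 2.2% of all). Between vehicle times it gave 0 and 0 there and 0 higher in the mitochondrial ribosome (0.991% higher and 2.58% lower of all). In endotoxin against the other vehicle times 1 respiratory chain probe set was lower (0.827% of all). Centring on the median of the 127 cytosolic ribosomal protein probe sets gave 4 higher and 1 lower in the respiratory chain. The mitochondrial ribosome had 0 lower, against 8.7% higher and 1.12% lower of all probe sets. Between vehicle times the respiratory chain had 3 higher and 0 lower (3.53% and 3.27% of all). In endotoxin against the other vehicle times 7 and 10 were higher (13.7% of all). There it moved the median of all probe sets by itself to 0.11, with the members' medians at 0.097 and 0.12. Testing only the probe sets brighter than the median, a smaller set, gave 7 lower in the respiratory chain. The mitochondrial ribosome had 1 higher and 2 lower, against 14.2% higher and 6.65% lower of that set. Between vehicle times there were 2 higher and 2 lower in the respiratory chain. The mitochondrial ribosome had 1 lower there, against 4.69% higher and 12.1% lower of that set. In endotoxin against the other vehicle times 3 and 2 were lower (3.11% of that set). The NDUFS6 and MRPL32 probe sets named above were again called lower against both sets of vehicle cells.

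The arrays of 4 hps alone gave 0 calls in both groups, but that fit left very few residual degrees of freedom and could call little. Leaving out the vehicle arrays of 4 hps also gave 0 calls, and NDUFS6 (Gga.8284.3.S1_at) turned to 0.0013 (q = 0.78, limma). The reference was then vehicle cells of 1, 2 and 8 hps, a comparison already reported with 0 calls. Vehicle of all times as the reference gave 0 higher and 1 lower (NDUFA7, -0.23) in the respiratory chain and 0 in the mitochondrial ribosome. It also gave 2 calls at 1 hps, ATP5J2 (0.50, q = 0.027) and COX7C (0.40, q = 0.022, limma). That reference also holds differences between times, and ATP5J2 was highest at 1 hps in vehicle cells too. Neither was called against vehicle cells of 1 hps. Leaving out endotoxin replication 3 at 1 and 2 hps gave 1 higher in the respiratory chain, 0 lower between vehicle times and 0 lower in the mitochondrial ribosome. Except where a construction above shows it, the cause was not tested. Across the settings with a value for each, NDUFS4 was called in 23 of 35, NDUFB8 in 23 of 36, ATP5O in 17 of 36, MRPL15 in 18 of 35, NDUFS6 in 8 of 35 and TTC19 in 29 of 36. These counts include the setting of 1 probe set a gene, which reused the reported fit and so could not change a call of these probe sets. They also include the settings with other vehicle cells as the reference. Signs of uncalled differences carry no direction.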
